A study of Rattus norvegicus with 30 samples.

Results

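In the prefrontal cortex (PFC) of young rats, 772 autosomal regions carried a DNA methylation (DNAm) peak in most control (CON) animals and in the minority of both pair-fed (PF) and prenatally alcohol exposed (PAE) animals. They were selected on the peak calls themselves, from 604866 regions made by merging the peaks of 30 libraries on chromosomes 1 to 20 where they overlapped by at least 1 bp. A member had a called peak in 8 or more of 10 CON libraries, in 4 or fewer of 10 PAE libraries and in 4 or fewer of 10 PF libraries, a rule that 0.128% of the merged regions met. Because group differences chose the members, these differences are given as a description, without a test. When whole litters were relabelled among the groups, 10.2% of the relabellings gave at least as many regions, as described with the litters.

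The animals were Sprague-Dawley rats on postnatal day 22, with 5 labelled female and 5 labelled male in each group, from 15 dams that each gave 1 pup of each labelled sex. PAE dams had free access to a liquid diet with 36% of its calories, or 6.37% by volume, from ethanol. PF dams received a liquid control diet with maltose-dextrin in place of ethanol, limited to what a PAE partner ate, and CON dams had free access to the same control diet as pellets. All diets were given from gestation day 1 to 21 and then replaced by chow, so the pups were exposed before birth, through the dam.

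DNAm in mammals lies mostly on cytosines that precede a guanine, the CpG sites, and most CpGs outside of CpG islands are methylated. In meDIP-seq, an antibody against 5-methylcytosine pulls down methylated fragments, and a peak marks a place where they pile up. A region can miss a peak because it is less methylated in some cells, or because its pileup lies just under the calling threshold, and the peak calls do not tell these apart. The PFC supports executive control and was taken as whole tissue, so a change in the mix of cells and a change within cells cannot be told apart either. The PF group separates the ethanol from the smaller ration that goes with it, although a limited ration is itself a burden on the dam.

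No genome sequence of Rn6, the build of the peaks, was used here, so the bases of the members themselves are not shown. Of the members that the study's region tables annotate, the one beside Myh7, the slow and beta-cardiac myosin heavy chain, was alone in being placed within 1500 bp of a start site. The 250 bases that RefSeq lists before that start site, on the minus strand of the GRCr8 build (chr15:32438195-32438444), are shown to give an idea of the CpG content that the antibody sees at such a site. CpGs are in capitals.
Myh7: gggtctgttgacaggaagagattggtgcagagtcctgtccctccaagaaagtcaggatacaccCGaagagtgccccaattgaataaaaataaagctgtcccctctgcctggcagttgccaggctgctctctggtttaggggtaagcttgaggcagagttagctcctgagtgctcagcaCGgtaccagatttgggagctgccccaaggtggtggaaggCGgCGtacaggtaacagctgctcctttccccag
The sequence held 4 CpGs (1.60 per 100 bases), against a median of 5.00 in the same window of 33469 rat genes, 62.6% of which held at least 4. The Rn6 member was not placed on GRCr8, so it may lie outside this window.

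By their peaks on the sex chromosomes, 18 of the 30 libraries went against their labelled sex. In 7 libraries, 2 labelled female and 5 labelled male, 2.65% to 3.14% of the peaks were on chromosome X and 4 to 11 peaks were on Y. The other 23, 13 of them labelled female, had 0.774% to 1.15% on X and 38 to 87 peaks on Y. The 7 libraries were CON 8, CON 10, PAE 1, PF 5, PF 6, PF 7 and PF 8, so by these peaks the groups were not balanced for sex. All comparisons by sex below therefore refer to the label. Dam and group come from the same sample labels and were not checked, so the comparisons of litters and littermates rest on them as well. Between 11548314 and 16555049 filtered fragments lay behind a library, which had 103898 to 208631 autosomal peaks.

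Most members sat at the edge of the rule. Of the 772 members, 612 had a peak in 8 CON libraries, 143 in 9 and 17 in all 10. In PAE, 339 members had a peak in 4 libraries, and 9 had none. In PF, 404 had a peak in 4 libraries and 3 had none. No member lacked a peak in every PAE and PF library, and 27 had 3 or fewer such libraries in both groups together. In all, 728 members stood on at least 1 limit and 155 on all 3 limits at once. Outside the rule, 2064 regions missed it with 7 CON libraries, 378 with 5 PAE libraries and 531 with 5 PF libraries. The rule capped both exposed groups alike, and the members leaned neither way by much. There were more PF than PAE libraries at 267 members, more PAE libraries at 196 and equal numbers at 309.

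A library of the CON group had a peak at 515 to 745 members (median 608). PAE libraries had one at 135 to 514 members (median 227) and PF libraries at 174 to 433 (median 229). The groups did not overlap, although PAE 2, with 514 members, came within 1 member of the lowest CON library, CON 3, with 515. The libraries PAE 2 and PF 4, with 433 members, stood apart from their groups and gave 21.2% of all PAE peaks and 17.1% of all PF peaks at members. The CON libraries also lay above the others within each sequencing lane. On lane 8, the lane of PAE 2 and PF 4, CON had peaks at 714 and 745 members, PAE at 176 to 514 and PF at 433. On lane 4, which held no PF library, CON had peaks at 515 to 605 and PAE at 135 to 225. On lane 7, without a PAE library, CON had peaks at 612 to 702 and PF at 283 and 298. These gaps follow from the rule.

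A library with more peaks also had more of them at members. As peaks at members are part of the peaks of a library and were chosen by the rule, this relation is a description, with no test. Within CON the Pearson r between members with a peak and autosomal peaks was 0.93 and Spearman's rho 0.98 (n = 10 libraries). Within PAE these were 0.96 and 0.91, and within PF 0.97 and 0.95. Without the pair of libraries farthest from the median peak number, CON had an r of 0.96, PAE of 0.94 and PF of 0.98. The 82785 other regions with a peak in as many libraries as a member, 10 to 18, had an r of 0.99 in CON, 0.99 in PAE and 0.98 in PF, so the relation was not particular to the members. With the number of filtered fragments, CON had an r of -0.39, PAE of 0.22 and PF of -0.41. Without the pair of libraries farthest from the median number of filtered fragments, these were -0.17, 0.17 and -0.79. CON libraries had 151576 ± 26759 autosomal peaks, PAE libraries 135828 ± 26494 and PF libraries 143998 ± 19297 (SD, n = 10 each). Counts with the same number of peaks in each library are given with the relabelled litters.

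**Figure D1:**
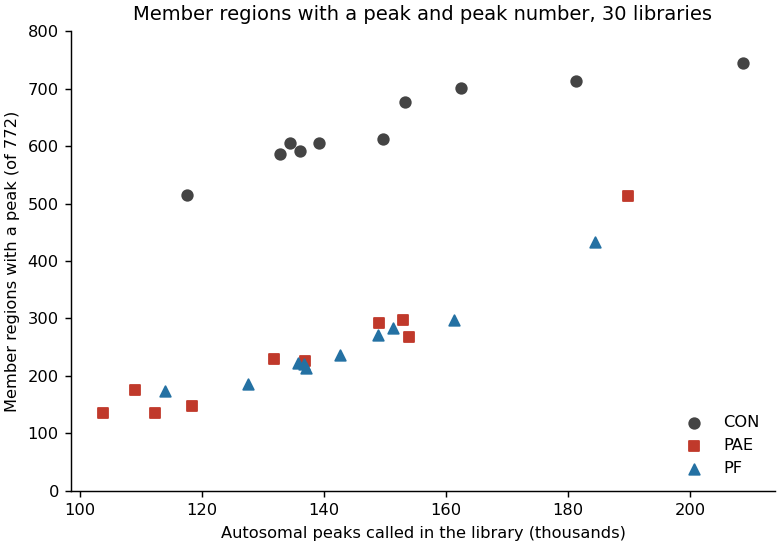
Member regions with a peak (y axis, of 772) against the number of autosomal peaks in the library (x axis), 1 point per library, 10 libraries per group. Within each group the points rise from left to right, CON from 515 to 745 members, and PAE 2 (514) and PF 4 (433) are the uppermost points of their groups.

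Members with a gene name came from the region tables of the study, which were chosen on these same animals and are no independent evidence. Of the 772 members, 20 (2.59%) had the same start and end as 1 of the 1462 listed regions (1.37% of these), 18 of them in the table shared by PAE and PF (1.90% of its 949 regions). Of the rest, 1 was in the PAE-specific and 1 in the PF-specific table. Regions there were not significant in the study between the other exposed group and CON. All tables together held 197 of the 54448 regions with 8 or more CON peaks (0.362%) and 0.242% of all merged regions. As the tables list regions that differed between these same groups, nothing is read from the larger share at members. Of these 20 members, 10 carried a gene there, and none was listed in a CpG island. The other members had no annotation of their own. Grouped by role, Unc79, which encodes a subunit of the sodium leak channel complex NALCN, was the single gene from 5 lists of 18 channel genes, 17 receptor and synaptic genes, 26 growth factor, guidance and adhesion genes, 34 transcription and chromatin genes and 23 kinase and second messenger genes. Heights are given below as the peak's pileup per 1000000 filtered fragments, and a group mean sets libraries without a peak, and those with a lower one, to the floor of 0.438, the highest of the lowest heights that the libraries show.

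The Unc79 member (intron, chr6:126912876-126913333) had a peak in 8 CON libraries, with heights of 0.526 to 1.12 and a median of 0.958. In PAE it had 2 peaks, of 0.538 and 0.679, and in PF 3 peaks, of 0.732 to 0.849. The PAE and PF peaks that were called lay inside the CON range. On the log2 scale, with lane and labelled sex in the fit, the difference from CON was -0.72 (SE 0.202) in PAE and -0.70 (SE 0.209) in PF. As the rule chose these differences and the fit has no term for dam, the SEs here and at Myh7 serve as no test.

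The other 9 gene members belonged to none of the 5 lists. The member in Sil1 (intron, chr18:28075569-28075973), a nucleotide exchange factor of the endoplasmic reticulum chaperone BiP, had 8 CON peaks of 0.931 to 1.63 (median 1.22), 3 PAE peaks of 0.708 to 0.886 and 3 PF peaks of 0.906 to 1.43. Here all called PAE heights were lower than the lowest CON height, as was 1 of the PF heights, 0.906. The member in Hspa14 (exon and intron, chr17:78747249-78747698), an Hsp70 family chaperone, had 8 CON peaks of 0.788 to 1.61, 2 PAE peaks of 0.930 and 1.07 and 3 PF peaks of 0.805 to 1.17. Xpo5 encodes exportin-5, which carries microRNA precursors out of the nucleus, and its member (exon and intron, chr9:17147101-17147547) had 8 CON peaks of 0.643 to 1.37, 3 PAE peaks of 0.681 to 1.29 and 2 PF peaks of 0.874 and 1.24. The member in Sugp2 (exon and intron, chr16:20921380-20921993), a protein with the SURP and G-patch domains known from splicing factors, had 9 CON peaks of 0.502 to 1.20, 2 PAE peaks of 0.584 and 1.02 and 2 PF peaks of 0.557 and 0.659. For Hspa14, Xpo5 and Sugp2, every called PAE and PF height lay within the CON range.

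Arhgef18, a guanine nucleotide exchange factor, had its member in an intron (chr12:1911689-1912253), with 9 CON peaks of 0.504 to 1.00, 2 PAE peaks of 0.538 and 0.749 and 2 PF peaks of 0.437 and 0.721. Limch1, an activator of non-muscle myosin, had 8 CON peaks of 0.645 to 1.20 in its intronic member (chr14:42894217-42894780), 1 PAE peak of 0.749 and 4 PF peaks of 0.498 to 0.966. The lowest PF peak of Arhgef18 and the lowest PF peaks of Limch1, 0.498 and 0.636, lay under the CON range, and the other PAE and PF peaks of both regions lay within it. Ppp2r5e encodes a regulatory subunit of the phosphatase PP2A, and its intronic member (chr6:98544257-98544794) had 9 CON peaks of 0.686 to 1.44, 3 PAE peaks of 0.885 to 1.22 and 3 PF peaks of 0.664 to 1.27. Mmp24 encodes a membrane-bound metalloproteinase of the nervous system, and its intronic member (chr3:151343117-151344300) had 8 CON peaks of 0.723 to 1.39, 3 PAE peaks of 0.687 to 1.36 and 2 PF peaks of 0.641 and 1.03.

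The Myh7 member (chr15:33656582-33657130), whose neighbouring start site is the one printed above, came from the PAE-specific table. It had 8 CON peaks of 0.526 to 1.65 (median 1.06), a single PAE peak of 0.584 and 4 PF peaks of 0.801 to 1.15, so PF stood on the limit of the rule. Its log2 difference from CON was -0.96 (SE 0.255) in PAE and -0.58 (SE 0.264) in PF, and PAE minus PF was -0.37 (SE 0.255). Across the 10 gene members, PAE 2 had a peak at 7 and PAE 8 at 0, and PF 4 had one at 5. The CON libraries had a peak at 5 to 10 of them.

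**Figure D2:**
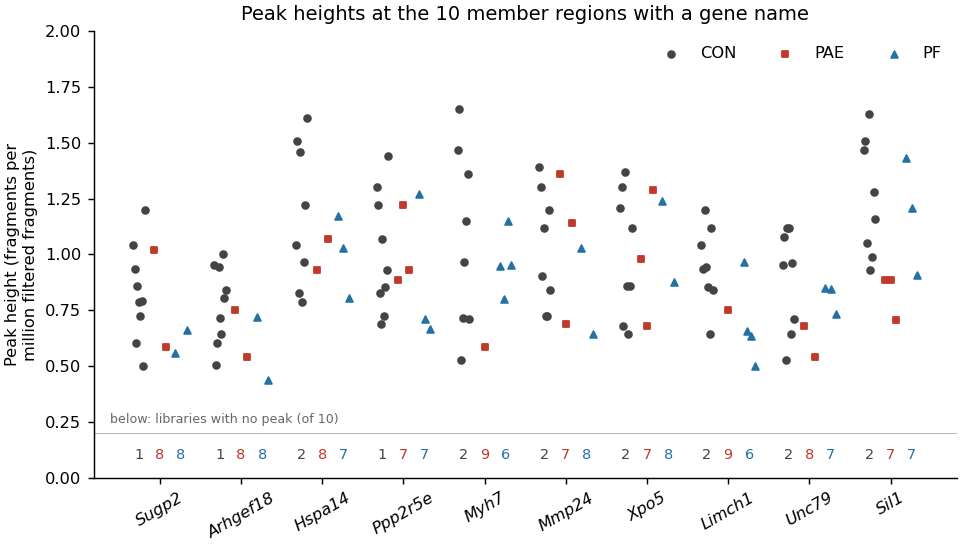
Peak height (y axis, fragments per 1000000 filtered fragments) at the 10 member regions with a gene name (x axis), with 1 point per library that had a peak and, under the line, the number of the 10 libraries of each group without one. CON lacks a peak in 1 or 2 libraries of each region and PAE and PF in 6 to 9, while most PAE and PF peaks lie within the CON range.

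A further 5 members lay between 2 listed regions of the same gene and were noted after their values were seen. One lay in Slc12a8 (chr11:70427450-70428595), of the cation-chloride cotransporter family, with peaks in 8 CON, 2 PAE and 3 PF libraries. One lay in Slc39a11 (chr10:101798375-101799531), a zinc transporter, with 9, 4 and 4. One lay in Gpc5 (chr15:100669076-100669948), a cell surface glypican, with 8, 3 and 4. Tenm2, a synaptic adhesion protein of the teneurin family, held 2 members (chr10:21301730-21302451 and chr10:21314444-21315155), with 8, 4 and 4 libraries in the first and 8, 3 and 4 in the second.

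The members with the widest margins, with 8 or 7 more CON libraries than PAE and PF libraries together, had low peaks. The widest was on chromosome 6 (chr6:108904407-108904998), with 9 CON peaks of 0.358 to 1.01 (median 0.582), no PAE peak and 1 PF peak of 0.512. Next came 3 members with 9 CON, 1 PAE and 1 PF libraries, at chr16:1983395-1983928, chr4:30049559-30050574 and chr1:27418811-27419350, where the median CON peak was 0.648, 0.720 and 0.645. The single PAE peaks at these 3 members were 0.756, 0.749 and 0.679, all above the CON median. The member at chr4:13478813-13479151 was higher, with 8 CON peaks of 0.932 to 1.97 against 1 PAE peak of 0.886 and 1 PF peak of 0.854, and that at chr7:11938722-11939139, a region of the shared table without a gene, had 8 CON peaks of 0.931 to 1.69, no PAE peak and 2 PF peaks of 0.849 and 0.966. At the first of these both exposed peaks lay below every CON peak. By number of CON minus PAE and PF libraries, 11 members were tied with these last regions, and those with the highest CON mean are named. The other 4 named had 8 or 9 CON libraries, 1 PAE library and 1 or 2 PF libraries, at chr2:239213290-239213763, chr3:54484718-54485520, chr8:110905667-110906200 and chr6:72737128-72737559. Their median CON peaks were 0.863, 0.788, 0.643 and 0.875 in this order.

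Most members stood alone. Of the 772 members, 711 had no other within 100 kb, 26 pairs did, and 3 runs held 3 members each. The runs spanned 101 kb on chromosome 1 (chr1:247251726-247352578), 112 kb on chromosome 7 (chr7:66320445-66432691) and 72.6 kb on chromosome 10 (chr10:45762817-45835372). In the chromosome 10 run the middle member (chr10:45810404-45810980) had peaks in 8 CON, 2 PAE and 0 PF libraries and the outer members in 8, 4 and 4 and in 8, 3 and 3. The share of regions with 8 or more CON peaks that were members ran from 1.05% on chromosome 19 to 1.85% on chromosomes 6, 15 and 17, around 1.42% over all chromosomes.

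Just outside the rule stood the Drd4 region (chr1:214277533-214278048), named for the dopamine D4 receptor gene. It had 8 CON peaks of 0.776 to 1.85, 1 PAE peak of 1.36 and 5 PF peaks of 0.513 to 0.878, so it missed by 1 PF library. The mean height of CON libraries there was 1.05 ± 0.427, that of PAE libraries 0.531 ± 0.292 and that of PF libraries 0.584 ± 0.185 (SD, n = 10 each). By mean height PF was nearer to PAE than to CON. The Sil1 member, just inside the rule with 8, 3 and 3 libraries, had means of 1.09 ± 0.414, 0.555 ± 0.194 and 0.662 ± 0.380.

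Members were shorter and lower than the other regions that most CON libraries shared. Their length was 328 to 2185 bp, with a median of 648 bp, compared to 786 bp for the other 53676 regions with 8 or more CON peaks. The median height of CON peaks was 0.856 at members and 1.05 at those other regions, and the median −log10 q-value was 4.35 and 6.25. Regions with a peak in as many libraries, 10 to 18, had nearly the values of the members, with a median length of 608 bp, a CON height of 0.840 and a −log10 q-value of 4.26. Where they were called at all, peaks at members had a median height of 0.788 in PAE and 0.787 in PF. For those regions with as many libraries these were 0.756 and 0.783.

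In the fit of log2 height across 352026 regions with a peak in 3 or more libraries, which all members passed, the median member had a difference of -0.48 for PAE minus CON and -0.47 for PF minus CON. Over all tested regions these medians were -0.05 and -0.03. The members' differences ran from -1.30 to -0.04 in PAE and from -1.33 to 0.08 in PF, and both comparisons share the CON libraries. For PAE minus PF, which the rule did not set against each other, the median was -0.02 at members and -0.02 over all regions, with 55.2% and 56.4% of the differences below 0, and values from -0.60 to 0.53 at members. The differences understate any change below the floor.

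The number of members was then compared with relabelled litters in an exact permutation test over the 15 dams, keeping both pups of a dam together. As the rule sets the same limit for PAE and PF, these roles were taken as interchangeable. Of 378378 ways to place 5 dams in each role, 38569 gave at least 772 regions (one-sided exact permutation p = 0.102, adjusted over 3 counts 0.306). The median was 449 regions, and the counts ran from 156 to 2800. The 772 members therefore lay above the median without passing 0.05. The largest count had C41, C43, C45, E2 and PF27 in the place of CON, dams with a mean of 160682 peaks per library against 135360 for the others, and 3 of these 5 were CON dams. With the CON dams kept and the other 10 divided anew, 126 ways gave 702 to 828 regions (median 785), so which exposed dams were PAE and which PF hardly moved the number.

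**Figure D3:**
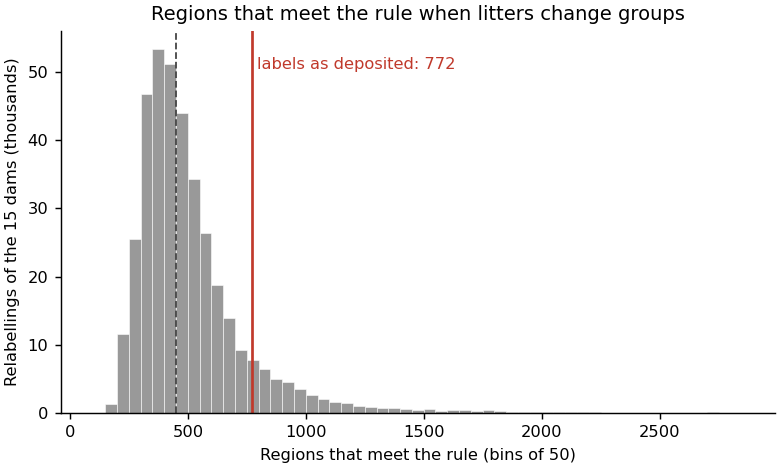
Number of relabellings of the 15 dams (y axis) by the number of regions that meet the rule (x axis, bins of 50). The red line marks the 772 members under the deposited labels and the dashed line the median of 449, and 10.2% of the relabellings lie at or beyond 772.

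The same thresholds with another group in the place of CON gave 323 regions for PAE and 582 for PF, and 242 regions had 4 or fewer CON and 8 or more of both PAE and PF libraries. Of the relabellings, 84.7% gave at least 323 regions and 24.6% at least 582 (one-sided exact permutation p = 0.847 and 0.246). When each library was cut to its 103898 peaks with the largest −log10 q-value, the number of the library with the fewest, the 3 counts came together at 413 for CON, 400 for PAE and 398 for PF. Of these 413 regions, 157 were members. The relabellings then had a median of 355, and 21.2% of them gave at least 413 regions (one-sided exact permutation p = 0.212). At the 772 members themselves, with equal peak numbers, CON libraries still had 414 to 476 peaks, PAE 121 to 320 and PF 143 to 271, as members were chosen to differ.

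**Figure D4:**
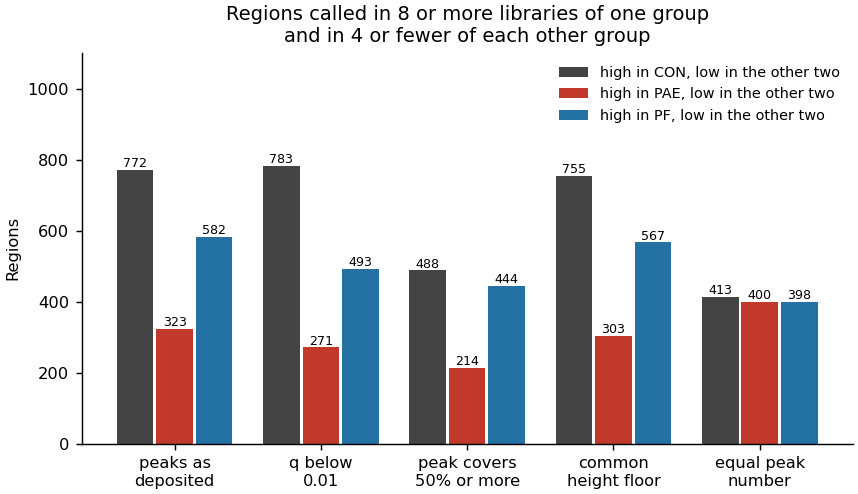
Regions (y axis) with a peak in 8 or more libraries of 1 group and in 4 or fewer of each other group, for CON, PAE and PF in the high role, under 5 ways to count a peak (x axis). CON is highest with the deposited peaks (772, against 323 and 582), and with an equal number of peaks the bars are 413, 400 and 398.

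No difference by labelled sex passed its test. A labelled female had a peak at 27.9 ± 132 more members than the male of the same dam (SD, n = 15 dams, female higher in 7, exact permutation p = 0.440, two-sided). The difference was not shown to vary with exposure, with CON minus PAE at -37.6 and CON minus PF at 35.0 (exact permutation test over 5 and 5 dams, two-sided, p = 0.706 and 0.603, adjusted p = 0.706 for both). In the 2 dams whose pups both went with their labels, female minus male was 81 and -109. By region, limma found 0 of 772 members at an adjusted p under 0.05 between labelled sexes, against 0% of 352026 regions, and 37 members (4.79%) at an unadjusted p under 0.05 against 5.12% of regions. With the 12 libraries that went with their labels, 2 female and 10 male, 0 members and 7018 of 323190 regions passed at an adjusted p under 0.05. That fit had 4 residual degrees of freedom. Both females, PAE 1 and PF 5, were on lane 5, where PAE 9 was the only male, so nothing is read from these counts.

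Lane was tested in the same fit. By the limma F-test, 0 members passed an adjusted p of 0.05 for lane, against 0.0321% of regions, and the smallest adjusted p of a member was 0.0552. At an unadjusted p under 0.05, 147 members (19.0%) passed, against 13.6% of all regions. Many of all regions had few peaks, and whether this matters for the shares was not tested. With a pseudocount of 0.1 the shares were 10.1% and 10.5%, and with quantile normalization 6.48% and 7.15%. With each library's own floor they were 20.6% and 13.7%, and with regions called in 2 or more libraries 21% and 12.2%. Littermates were not shown to be more alike than other pairs of their group. Both had or both lacked a peak at 68.4% of members in CON, 52.6% in PAE and 52.4% in PF, against means of 68.3%, 54.4% and 53.2% over all 120 pairings of the 5 females with the 5 males (one-sided exact permutation p = 0.583, 0.817 and 0.917, adjusted p = 0.917 for all). The smallest p that 120 pairings allow is 0.00833.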

How the data were processed

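The 30 rat PFC libraries were made by meDIP-seq. BWA (Rn6), SAMtools and MACS2 (2.1.4 in the file headers) were run by the authors to align reads, filter them and call peaks per animal, at a q-value cutoff of 0.05 and with no control library. The deposited signal of a peak is its pileup (coverage at the summit), not scaled for depth, with its deposited −log10 q-value. Lower coverage, below that cutoff, was not used here.

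Peaks were merged at an overlap of 1 bp. Pileup was divided by filtered fragments (11548314 to 16555049 per library) and scaled to 1000000, with values below 0.438 and libraries without a peak set to 0.438. Log2 heights of regions with peaks in 3 or more libraries were fitted with limma 3.58.1 (R 4.3.3) with group, labelled sex and lane, and adjusted by the Benjamini-Hochberg method. Litters were relabelled exactly with numpy 2.4.6. Both steps were tested on simulated data. Members and lists were chosen with earlier results of these data known. The text names every member with a gene in the study's region tables, the 10 with the widest margin of CON over PAE and PF libraries (ties by mean CON height), runs of 3 or more with gaps under 100 kb, and the Drd4 region. Of the supplementary tables, only positions, genes and features were used. The alternatives were stricter q-values, peaks covering 50% of a region, a common floor, equal peak numbers, wider merging, other thresholds, libraries left out, and other floors, scaling, filters and covariates in limma.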

Additional observations from a re-analysis of the deposited data

Results flagged for a closer look

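Among the 10 PAE libraries, PAE 2 had a peak at 514 members, 217 more than the next library, in a range of 379. Among the 10 PF libraries, PF 4 had a peak at 433 members, 135 more than the next, in a range of 259. Each gap is larger than Dixon's 95% limit for 10 samples, which chance passes in about 1 of 20 groups. Both libraries were sequenced on lane 8 and had the largest peak numbers of their groups, 189772 and 184391. Their peak numbers, which the rule did not select on, did not stand apart by the same measure (0.417 and 0.327). Without these libraries, with thresholds of 80% and 40% of the libraries left, 545 regions met the rule, against 90 with PAE and 140 with PF in the place of CON. With 9 libraries left in PAE and PF, 80% means 8 of 9, so the PAE and PF counts fall by construction and the larger lead of CON is not read as stronger. This alternative was added after the data were seen, and what sets the pair of libraries apart was not tested.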

How the results depend on the processing

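Peak calls are all that these values rest on, so a drop just under the calling threshold counts as a loss. The number of members stayed within 1.5 times of 772 with q below 0.01 (783, of which 462 were members), a common height floor (755, of which 654 were members), wider merging (773) and without PAE 2 and PF 4 (545). It moved to 488 with peaks covering 50% of a region (204 shared with the members), 413 with equal peak numbers, 412 with the regions merged again from these peaks, 6271 with 7 CON and 5 PAE and PF libraries, 44 with 9 and 3, 7310 in the libraries labelled female and 5408 in those labelled male. For 1 labelled sex the thresholds were 80% and 40% of 5 libraries per group, a looser demand that raises the count by construction. Where litters were relabelled, which was not done for libraries of 1 labelled sex or left-out libraries, p stayed above 0.05, from 0.0620 with 9 and 3 libraries to 0.213 with regions merged again. With 1 library left out and thresholds as shares, which can only lower the count, it ran from 182 (without CON 2) to 671 (without PAE 2). It fell past 1.5 times without any of the CON libraries (182 to 394) and without PAE 8 (514), PF 1 (513), PF 2 (485) or PF 5 (479). The ratio of members to the larger of the PAE-high and PF-high counts was 1.33. It was 0.893 in libraries labelled male, 2.10 with 9 and 3 libraries, 3.89 without PAE 2 and PF 4, and 0.405 to 2.58 with 1 library left out. It was below 1 without 9 of the CON libraries, where the CON threshold becomes stricter by construction, as the PAE-high and PF-high thresholds do without a PAE or PF library. With filtered fragments in place of peak number, the relation became -0.39, 0.22 and -0.41 in CON, PAE and PF. With fragment size, added after the data were seen, r was 0.85, 0.60 and 0.57. Without the 2 libraries of each group farthest from the median fragment size, r was 0.81, 0.25 and -0.01. For lane, 6 members passed with each library's own floor and 2 with regions called in 2 or more libraries. For labelled sex, 0 members passed in the limma fits with dam as replicate block, without lane, with the other floors, scaling and filter. The female minus male difference turned to -14.0 in the 2 dams whose X and Y peaks went with the labels, an alternative added after the data were seen, as were the fit with 12 libraries, the second merging and the fit without 2 libraries. The causes were not tested.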
